A study of Mus musculus with 12 samples.

Results

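Rag1, Rag2, Dntt, Igll1, Vpreb1, Vpreb3, Il7r, Cd93, Kit and Cd24a are genes of B cell precursors that act in, or mark, the stages at which antigen receptor genes are assembled. These 10 genes and the related lists below were chosen with earlier results of these data known. Their shares called, set beside those of all genes, are therefore descriptive. The 10 genes were matched by mouse symbol among 56748 gene IDs, and each matched 1 ID. They were followed in the Eµ-Myc lymphoma, a murine B lineage line in which a Myc transgene is driven by the immunoglobulin heavy chain enhancer, so that B lineage cells express it. All 12 poly(A) RNA libraries came from these cells, and therefore all of them carry the transgene. The culture group held 4 libraries of cells taken straight from culture. The lymphatic group held 4 libraries of cells sorted from lymph nodes of C57BL/6J mice on day 11 after injection, following spread through lymphatic vessels. The hematogenous group held 4 libraries of cells sorted from lymph nodes on day 18, following spread through the blood. Route and day of collection cannot be told apart between the lymph node groups, and residence in the animal and sorting cannot be told apart between those groups and culture. The labels name no sort marker, no age of the mice and no separate animals or cultures for the replicates, so the tests measure the spread between these libraries, which may be technical. The tissue label reads lymph node for the culture samples too, and the titles were followed there.

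During B cell development, RAG1 and RAG2 form the nuclease that cuts immunoglobulin gene segments, and the DNA polymerase encoded by Dntt adds bases at the joints before end-joining enzymes seal them. Pro-B cells depend on the interleukin 7 receptor in the mouse, and after a heavy chain has been assembled it pairs with the surrogate light chain of lambda 5 (Igll1) and VpreB to form the pre-B cell receptor. The recombination genes and the surrogate light chain are normally silenced again as the cell matures. CD93, KIT and CD24 are surface proteins used to place cells along this path.

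Assigned counts ran from 5286775 to 25302016 per library and were highest in the lymphatic group. Levels are CPM (counts scaled to library size) with TMM library sizes, given as mean ± SD over the 4 libraries of a group, and changes are log2 values with SE from edgeR's quasi-likelihood test over all 13535 tested genes, called at a Benjamini-Hochberg adjusted p under 0.05. Of 8 markers of the B lineage, 7 were detected in every group. The eighth, the kinase gene Blk, had 0 counts in culture. Against a floor of 3 counts over the culture group, Blk was at least 40.9-fold higher in lymphatic and 24.2-fold higher in hematogenous libraries. It stayed scarce there, at means of 3.28 and 1.94 CPM. B lineage markers do not tell lymphoma cells from other B cells, and the part of host B cell RNA in these levels was not tested. Cd79a was at 446 CPM in culture, 399 CPM after lymphatic spread and 476 CPM after hematogenous spread. It alone among the 8 was called in no comparison. Pax5 was at 549, 420 and 778 CPM in the same order, and Ms4a1 at 0.788, 17.2 and 78.8 CPM. Against culture, lymphatic spread went with a rise of 4 markers and a fall of 2, and hematogenous spread with a rise of 6 and a fall of 0. Between the lymph node groups, 4 markers were called, each with less after lymphatic spread. Lymphatic 4 stood apart from the other libraries, with 16.0% of its counts in ribosomal protein genes against 7.61% to 9.87% elsewhere. Summed over 15 T cell markers, it held 136 CPM, lymphatic 1 to 3 held 33.1 to 64.6 CPM, hematogenous libraries held 11.5 to 27.9 CPM and culture libraries held 2.26 to 5.65 CPM. All 15 T cell markers were higher in lymphatic libraries than in culture, 11 were higher in hematogenous libraries than in culture, and 13 were higher in lymphatic than in hematogenous libraries. Beside these counts of B lineage and T cell markers, 26.4%, 27.8% and 22.3% of all tested genes were called in the same comparisons, in either direction. In bulk RNA, fewer cells of a type and less RNA per cell cannot be told apart.

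The 10 genes did not move as a block. Against culture, lymphatic libraries held more Rag1, Rag2, Dntt and Cd24a and less Igll1 and Cd93. Of the 10 genes, 8 passed the filter on low counts, and Vpreb1 and Kit did not. In this comparison 4 of the 10 were called higher and 2 lower, and 26.4% of all tested genes were called in either direction. Hematogenous libraries held more Rag2, Il7r, Vpreb3 and Cd24a than culture and less Dntt and Cd93, again 4 higher and 2 lower of 10, where 27.8% of all tested genes were called. Both comparisons share the culture libraries. Between the lymph node groups, Rag1, Rag2 and Dntt were called higher in lymphatic libraries and Igll1 and Il7r in hematogenous libraries, with 22.3% of all tested genes called. The libraries of the compared groups did not overlap for 4 of the 10 genes in the first comparison, 6 in the second and 3 in the third, where the shares over all tested genes were 30.1%, 43.6% and 24.6%. The median change of the 8 tested members was log2 0.40, 0.13 and −0.19 in the 3 comparisons, beside 0.04, −0.00 and 0.03 for all tested genes. With 1 library left out, 5 to 6 members were called in the first comparison. In the second the number was 3 without culture 1, 2 or 4 or hematogenous 1 or 3. In the third it was 3 without hematogenous 1 or 4 and 7 without lymphatic 4.

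**Figure D1:**
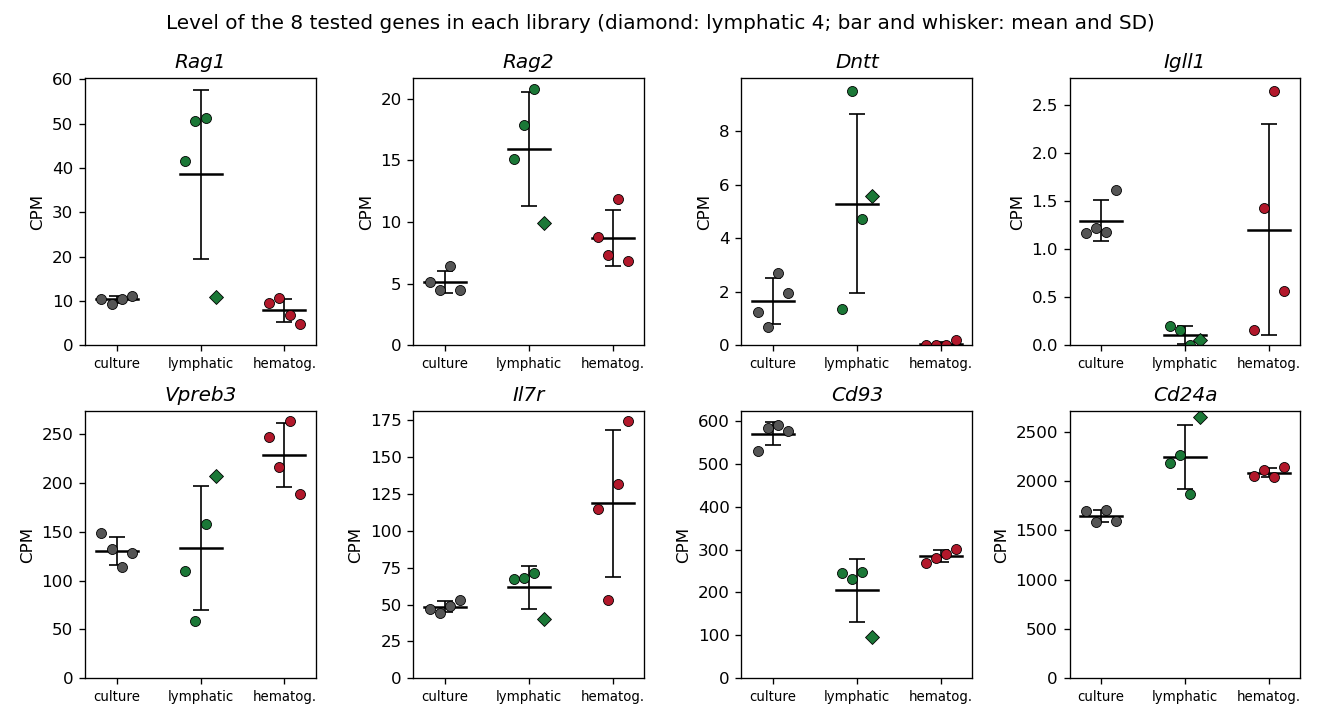
Level in CPM (y axis, linear) of the 8 tested genes in each of the 12 libraries, with 1 panel per gene and the 3 groups on the x axis. Points are libraries, a diamond marks lymphatic 4, and bars and whiskers are the mean and SD of 4 libraries. Rag1 stood at 41.5 to 51.3 CPM in lymphatic 1 to 3 and at 10.8 CPM in lymphatic 4, and Dntt was at or near 0 in every hematogenous library.

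Per kilobase of exon, the scale on which different genes can be compared, Cd24a was the most abundant of the 10 in every group, at 638 CPM per kb in culture, 869 CPM per kb in the lymphatic group and 808 CPM per kb in the hematogenous group. Vpreb3 followed at 152, 155 and 266 CPM per kb and Cd93 at 85.3, 30.7 and 42.7 CPM per kb, with Il7r next at 10.4, 13.2 and 25.4 CPM per kb. These 4 surface and secretory pathway genes kept this order in all 3 groups. The recombination genes stood lower, and their order changed. In culture Rag1 (1.57 ± 0.112 CPM per kb) and Rag2 (1.504 ± 0.268) lay within each other's spread, above Dntt (0.718 ± 0.378) and Igll1 (0.598 ± 0.0986). The mean of Igll1 lay within the spread of Dntt, but that of Dntt lay outside the narrower spread of Igll1. In lymphatic libraries Rag1 (5.83 ± 2.88) and Rag2 (4.65 ± 1.35) again lay within each other's spread, and Dntt (2.31 ± 1.46) was far above Igll1 (0.0484 ± 0.0430). In hematogenous libraries Rag2 (2.54 ± 0.658) stood above Rag1 (1.20 ± 0.401), and Igll1 (0.555 ± 0.507) and Vpreb1 (0.482 ± 0.411) stood above Dntt (0.0207 ± 0.0414). Vpreb1 and Kit were the lowest of the 10 in culture, at 0.130 and 0.00789 CPM per kb.

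**Figure D2:**
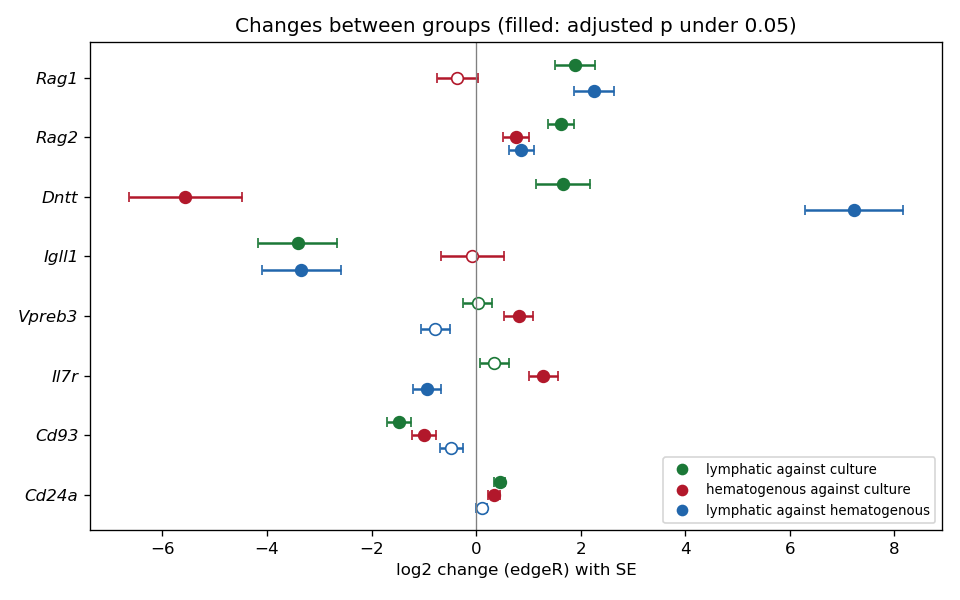
Log2 change (x axis) of the 8 tested genes in the 3 comparisons, with whiskers for the SE from edgeR and filled points for an adjusted p under 0.05. Rag1 changed by 1.89 against culture in lymphatic libraries and by −0.37 in hematogenous ones, and the values for Dntt that involve hematogenous libraries are fitted values that rest on 1 count in that group and give no bound.

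Rag1 and Rag2 encode the catalytic subunit and its partner in the recombinase and lie next to each other on mouse chromosome 2. Their upstream sequences are shown because both genes were called between the routes, together with that of Dntt, the third recombination gene that was called. The letters are the 250 bases before each gene's annotated start, read 5′ to 3′ on the gene's own strand, from RefSeq on GRCm38.p6, whereas the counts were made on GRCm39, so these positions were not joined to the counts. Capitals mark E boxes, the CANNTG pattern bound by E2A proteins among others. The windows lie at chr2:101649533-101649782 (minus strand) for Rag1, chr2:101624462-101624711 (plus strand) for Rag2 and chr19:41029025-41029274 (plus strand) for Dntt.
Rag1: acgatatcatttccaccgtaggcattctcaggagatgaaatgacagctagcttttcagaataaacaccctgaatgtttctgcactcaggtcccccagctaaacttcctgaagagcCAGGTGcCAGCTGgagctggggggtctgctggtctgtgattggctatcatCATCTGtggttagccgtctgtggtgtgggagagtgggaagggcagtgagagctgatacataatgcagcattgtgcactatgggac
Rag2: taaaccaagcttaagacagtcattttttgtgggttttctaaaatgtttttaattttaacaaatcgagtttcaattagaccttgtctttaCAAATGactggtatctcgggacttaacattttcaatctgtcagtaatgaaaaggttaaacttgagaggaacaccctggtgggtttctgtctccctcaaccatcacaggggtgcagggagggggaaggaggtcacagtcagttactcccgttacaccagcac
Dntt: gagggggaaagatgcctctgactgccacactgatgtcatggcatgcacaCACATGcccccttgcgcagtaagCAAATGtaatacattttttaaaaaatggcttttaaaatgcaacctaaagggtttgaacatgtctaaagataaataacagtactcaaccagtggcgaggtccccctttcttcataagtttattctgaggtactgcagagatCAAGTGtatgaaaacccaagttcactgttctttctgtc
Rag1 and Dntt held 3 E boxes each and Rag2 held 1. A CANNTG match on either strand occurred in 66.2% of 32851 promoter windows, so that such matches are common. One of the Rag1 matches was CAGCTG, a form of CANNTG found in 13.0% of windows, and Rag1 also held 1 match to the Ikaros pattern TGGGAA, found in 21.6%. The Myb pattern TAACNG, found in 19.8% of windows, matched 2 places in the Rag2 window and 1 in the Dntt window. The matches describe letters and not binding.

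Rag1 rose in lymphatic libraries, and 3 of the 4 carried the change. Its level was 10.5, 9.38, 10.4 and 11.2 CPM in culture 1 to 4. Lymphatic 1 to 4 held 41.5, 50.6, 51.3 and 10.8 CPM, and hematogenous 1 to 4 held 9.47, 10.6, 6.75 and 4.75 CPM. Lymphatic 1 to 3 lay above every culture and hematogenous library, lymphatic 4 lay inside the culture range, and hematogenous 3 and 4 were the lowest of all 12. Rag1 was 3.70-fold higher in lymphatic libraries than in culture (log2 1.89 ± 0.381, adjusted p = 2.33e-03). Without lymphatic 4 the change was log2 2.19 ± 0.180 (adjusted p = 1.73e-07). Against hematogenous libraries, lymphatic libraries were higher by log2 2.25 ± 0.387 (adjusted p = 1.20e-03), and by 2.54 ± 0.183 without lymphatic 4 (adjusted p = 2.17e-07). Hematogenous libraries differed from culture by log2 −0.37 ± 0.393, which was not called (adjusted p = 0.552). These levels rested on 383, 2724 and 338 counts in the 3 groups. The library with the lowest Rag1 of the lymphatic group, lymphatic 4, had the highest sum of T cell markers and the highest ribosomal protein share. The low level there was not particular to Rag1. Cd93, Rag1, Il7r and Rag2, with 6677, 6608, 4663 and 3424 exon bases, lay below lymphatic 1 to 3. The other tested members, Cd24a, Dntt, Igll1 and Vpreb3, with 2580, 2292, 2164 and 859 exon bases, lay within or above. The part of T cell RNA, ribosomal protein share or exon length in its Rag1 level was not tested.

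Rag2 rose in both lymph node groups, and by more in lymphatic libraries. Its level was 5.13, 4.52, 6.45 and 4.49 CPM in culture 1 to 4. Lymphatic 1 to 4 held 15.1, 17.8, 20.8 and 9.95 CPM, and hematogenous 1 to 4 held 8.75, 7.32, 11.8 and 6.84 CPM. All 8 lymph node libraries lay above all 4 culture libraries, and hematogenous 3 lay above lymphatic 4, so that the lymph node groups overlapped. Rag2 rose by log2 1.62 ± 0.247 in lymphatic libraries (adjusted p = 2.86e-04) and by 1.78 ± 0.199 without lymphatic 4. It rose by 0.76 ± 0.252 in hematogenous libraries (adjusted p = 0.0378), a call that was lost under limma-voom (0.0940), with library totals in place of TMM (0.0586) and without culture 1, 2 or 4 or hematogenous 1 or 3 (up to 0.135). Lymphatic exceeded hematogenous libraries by 0.86 ± 0.237 (adjusted p = 0.0191), a call lost with only these 2 groups fitted (0.0524) and without hematogenous 1, 2 or 4 (up to 0.0614), and by 1.02 ± 0.189 without lymphatic 4.

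The balance of the recombinase transcripts differed between libraries. The ratio of Rag1 to Rag2, each per kilobase, was 1.06, 1.08, 0.838 and 1.29 in culture 1 to 4. Lymphatic 1 to 4 gave ratios of 1.43, 1.47, 1.28 and 0.562, and hematogenous 1 to 4 gave 0.561, 0.750, 0.296 and 0.360. All hematogenous libraries lay below all culture libraries, and lymphatic 4 lay within the hematogenous range. Rag1 has 6608 exon bases and Rag2 has 3424. In lymphatic 4 the tested members with more exon bases were the ones that lay below lymphatic 1 to 3. The part of length in its ratio was not tested. The mean ratio was 1.07 ± 0.184, 1.18 ± 0.423 and 0.492 ± 0.206 in the 3 groups. Hematogenous libraries differed from culture at a two-sided exact permutation p of 0.0286, the smallest that 70 arrangements of 4 against 4 allow, which became 0.0857 after adjustment over the 3 comparisons. The exact permutation p was 0.0571 between the lymph node groups (adjusted 0.0857) and 0.886 between lymphatic libraries and culture. In the annotation, exons of B230118H07Rik overlap both genes, on the strand of Rag1 and opposite Rag2. That gene was at 0.405, 1.62 and 0.357 CPM in the 3 groups, and the strand setting of the counting is not given in the sources used here.

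**Figure D3:**
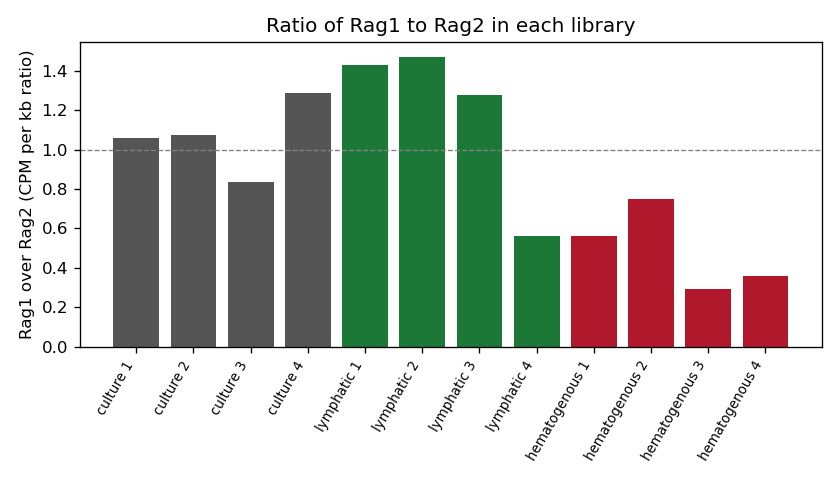
Ratio of Rag1 to Rag2 (bars, y axis from 0, CPM per kilobase of each gene) in each of the 12 libraries on the x axis, with a dashed line at equal levels. The 4 hematogenous libraries ran from 0.296 to 0.750, below all culture libraries at 0.838 to 1.29, and lymphatic 4 stood at 0.562.

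Dntt, whose product TdT adds untemplated bases at the joints, had the largest fold difference between the routes of the 8 tested genes. Its level was 1.25, 0.695, 2.69 and 1.96 CPM in culture 1 to 4. It was 1.35, 9.49, 4.73 and 5.57 CPM in lymphatic 1 to 4. Hematogenous 1 to 3 had 0 counts, which allow up to 0.241, 0.253 and 0.294 CPM, and hematogenous 4 had 1 count (0.190 CPM). Every hematogenous library lay below every other library, whereas lymphatic 1 lay inside the culture range. Unlike for Rag1, lymphatic 4 lay within the range of lymphatic 1 to 3. The rise from culture in lymphatic libraries was log2 1.66 ± 0.523 (adjusted p = 0.0305). That call was lost under limma-voom (adjusted p = 0.103, the highest of the alternatives), with only these 2 groups fitted (0.0650) and without culture 1, 2 or 4 or lymphatic 2. The fall in hematogenous libraries was called at an adjusted p of 1.40e-03, with 62 counts in culture against 1, a count ratio of 67.5 (95% counting interval 11.7 to 2707) after scaling by library size. Lymphatic exceeded hematogenous libraries at an adjusted p of 1.88e-04, with 417 counts against 1 and a count ratio of 236 (42.2 to 9348). These intervals cover counting error only.

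Of 16 genes of V(D)J recombination and end joining, all tested, 6 rose and 0 fell in lymphatic libraries against culture, 37.5% of the list beside 26.4% of all tested genes. Apart from Rag1, Rag2 and Dntt these were Hmgb1, which helps RAG bind its target (log2 0.93 ± 0.130), Xrcc6, the Ku70 end-binding subunit (0.85 ± 0.129), and Xrcc4, the partner of DNA ligase IV (0.72 ± 0.161). In hematogenous libraries 5 rose and 1, Dntt, fell, which was 37.5% of the list beside 27.8% of all genes. Beside Rag2 the 5 were Xrcc6 (0.89 ± 0.130), the ligase gene Lig4 (0.88 ± 0.152), the kinase gene Prkdc (0.80 ± 0.235) and the polymerase gene Polm (0.44 ± 0.136). Without culture 1 only 2 of them were called, and without culture 4, hematogenous 1 or hematogenous 4 only 3. Between the routes 5 were higher in lymphatic libraries, among them Hmgb1 (0.64 ± 0.129) and Xrcc4 (0.48 ± 0.159), and Lig4 (−0.65 ± 0.150) and Polm (−0.43 ± 0.135) were lower, 43.8% of the list beside 22.3%. Without lymphatic 4 the number lower was 5 between the routes and 1 against culture, and without hematogenous 1, 2 or 4 the number higher was 3. The list medians were log2 0.32, 0.16 and 0.19 in the 3 comparisons.

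Igll1 encodes lambda 5, a chain of the surrogate light chain found in precursor B cells. Its upstream window at chr16:16863986-16864235 (minus strand) is shown because it was the surrogate light chain gene called between the routes, with E boxes in capitals as above.
Igll1: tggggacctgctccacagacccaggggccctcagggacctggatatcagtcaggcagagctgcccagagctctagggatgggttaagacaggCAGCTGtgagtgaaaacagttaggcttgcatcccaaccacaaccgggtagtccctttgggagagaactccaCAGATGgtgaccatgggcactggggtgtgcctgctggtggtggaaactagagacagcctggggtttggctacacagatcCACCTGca
It held 3 E boxes, 1 of them CAGCTG, and 1 match to the Myb pattern. Igll1 was at 1.17, 1.22, 1.18 and 1.61 CPM in culture 1 to 4. The lymphatic libraries, in order, held 0.203, 0.160, 0 and 0.0562 CPM, and hematogenous 1 to 4 held 0.161, 1.43, 2.64 and 0.570 CPM. All lymphatic libraries lay below all culture libraries, while hematogenous libraries spread from the lymphatic range to above culture. Igll1 fell by 3.41 ± 0.754 on the log2 scale in lymphatic libraries against culture (adjusted p = 4.25e-03). It differed by −0.07 ± 0.599 in hematogenous libraries (adjusted p = 0.951). Lymphatic lay below hematogenous libraries by log2 −3.34 ± 0.752 (adjusted p = 6.35e-03). The group totals were 47, 8 and 49 counts, so the gene was scarce everywhere and its values carry wide counting error. Without lymphatic 4 the changes were −3.20 ± 0.784 against culture and −3.13 ± 0.782 between the routes.

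Vpreb1, the other chain of the surrogate light chain, was too scarce to be tested. It had 3, 1, 2 and 0 counts in culture 1 to 4. Lymphatic 1 to 4 had 2, 5, 2 and 7 counts, and hematogenous 1 to 4 had 2, 14, 8 and 1. The groups overlapped, and most hematogenous counts came from libraries 2 and 3, the same libraries that were highest for Igll1 in that group. After scaling, the hematogenous total of 25 counts was 3.83 times the culture total of 6 (95% counting interval 1.53 to 11.4), an interval that leaves out the spread between libraries. Vpreb2, a near-identical copy of Vpreb1, had 15, 1 and 1 counts in the 3 groups, and reads may have been split between the copies. Exons of Vpreb1 also overlap Top3b on the opposite strand in the annotation, a gene at 39.2, 46.4 and 67.1 CPM, so that the few Vpreb1 counts are uncertain.

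Vpreb3, a VpreB relative that acts on immunoglobulin chains inside the cell and stays on in immature B cells, was abundant in all libraries. Its level was 149, 132, 114 and 128 CPM in culture 1 to 4. The lymphatic libraries, in order, held 110, 58.8, 158 and 207 CPM, and hematogenous 1 to 4 held 247, 217, 263 and 188 CPM. Hematogenous libraries all lay above culture, and lymphatic libraries spread across both ranges and below them. Vpreb3 rose by log2 0.81 ± 0.277 in hematogenous libraries (adjusted p = 0.0422), but the call was lost in 9 of 17 alternatives, among them limma-voom (0.0616) and leaving out any culture library or hematogenous 1, 2 or 3 (adjusted p up to 0.107). The change in lymphatic libraries was log2 0.03 ± 0.275 (adjusted p = 0.950). The difference between the routes, −0.78 ± 0.276, missed the threshold (adjusted p = 0.0569) and was called without lymphatic 4, at −1.09 ± 0.226 (adjusted p = 1.78e-03), and under DESeq2 (0.0281), limma-voom (0.0380), library totals (0.0369) and no filter (2.15e-05). Lymphatic 4, low for Rag1 and Rag2, was the highest of its group for Vpreb3.

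Around these genes, 15 of 17 genes of the surrogate light chain and of pre-B cell receptor signalling were tested. In lymphatic libraries 5 rose and 3 fell against culture, with Cd79b, a signalling chain of the receptor (0.84 ± 0.175), and the kinase gene Syk (0.59 ± 0.192) among those that rose. The kinase gene Fyn (−1.59 ± 0.0957) and the phospholipase gene Plcg2 (−0.59 ± 0.149) fell with Igll1. In hematogenous libraries 7 rose and 1 fell, led by Syk (1.36 ± 0.194) and Cd79b (1.23 ± 0.177), with Fyn again lower (−1.60 ± 0.0964). Between the routes 1 gene, the adaptor gene Blnk (0.32 ± 0.104), was higher in lymphatic libraries, and 5 were lower, among them Syk (−0.78 ± 0.192) and Plcg2 (−0.69 ± 0.149). The call for a higher Blnk was lost without any of lymphatic 1 or 3 or the 4 hematogenous libraries. The number lower was 8 without lymphatic 4 and 3 without hematogenous 1 or 4. Those called made up 53.3%, 53.3% and 40.0% of the list in the 3 comparisons, beside 26.4%, 27.8% and 22.3% of all tested genes. The list medians were log2 0.03, 0.18 and −0.26.

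Il7r, the specific chain of the interleukin 7 receptor, rose after hematogenous spread. Its level was 47.2, 44.1, 49.3 and 53.0 CPM in culture 1 to 4. The lymphatic libraries, in order, held 67.3, 67.8, 71.3 and 40.1 CPM, and hematogenous 1 to 4 held 115, 53.4, 132 and 174 CPM. Hematogenous libraries all exceeded culture, by little in hematogenous 2, which lay below lymphatic 1 to 3. Lymphatic 1 to 3 lay above culture and lymphatic 4 below it. The rise in hematogenous libraries was log2 1.29 ± 0.279 (adjusted p = 3.08e-03). In lymphatic libraries the change was 0.35 ± 0.275 (adjusted p = 0.386). The difference between the routes was log2 −0.94 ± 0.275 (adjusted p = 0.0259), lost under limma-voom (adjusted p = 0.0565), with only these 2 groups fitted (0.0854) and without hematogenous 1, 3 or 4 (up to 0.0911), and −0.78 ± 0.246 without lymphatic 4. T cells also express Il7r. The T cell marker sums given above lay below Il7r in every culture and hematogenous library and in lymphatic 1 to 3, and above it in lymphatic 4, at 136 CPM against 40.1 CPM. In culture 6 of the 15 markers, Cd4, Cd8a, Trbc1, Trbc2, Cd3d and Zap70, had 0 counts. A sum over 15 genes and the level of 1 gene, neither per kilobase, are unlike measures, so their order gives no share. The part of T cell RNA in the Il7r levels was not tested.

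Of 16 genes of the interleukin 7 receptor pathway, 15 were tested. In lymphatic libraries 2 rose, the cell cycle gene Ccnd2 (4.17 ± 0.466) and the kinase gene Pim1 (2.04 ± 0.208), and 2 fell, the receptor kinase gene Jak1 (−0.61 ± 0.146) and the survival gene Bcl2 (−0.52 ± 0.102). Ccnd2 was scarce, with 5, 0, 1 and 5 counts in culture 1 to 4. Its mean was 5.47 CPM in lymphatic libraries, highest in lymphatic 4 at 7.98 CPM. Without lymphatic 4 the number that fell was 4. In hematogenous libraries 5 rose, among them Pim1 (1.62 ± 0.209) and Bcl2 (0.42 ± 0.102) beside Il7r, and 1 fell, the feedback inhibitor gene Socs2 (−1.63 ± 0.285). Il2rg, the chain that pairs with IL-7Rα, was at 49.0, 44.8 and 38.0 CPM and was not called in any comparison. Between the routes Socs2 was higher in lymphatic libraries (1.64 ± 0.282), and Bcl2 (−0.95 ± 0.102) and Jak1 (−0.48 ± 0.145) were lower along with Il7r. The number lower was 1 without hematogenous 3 or 4, and the number higher was 2 without lymphatic 2. The share called was 26.7% in lymphatic libraries against culture, near the 26.4% over all tested genes. It was 40.0% in hematogenous libraries (27.8% over all) and 26.7% between the routes (22.3% over all). The list medians were log2 0.01, 0.15 and 0.10.

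Cd93, a surface protein of immature B cells also known from myeloid and endothelial cells, fell in both lymph node groups. Its level was 531, 582, 591 and 575 CPM in culture 1 to 4. The lymphatic libraries, in order, held 246, 232, 248 and 95.2 CPM, and hematogenous 1 to 4 held 268, 281, 291 and 301 CPM. No library of one group overlapped another group. Cd93 fell by 1.47 ± 0.226 on the log2 scale in lymphatic libraries (adjusted p = 2.90e-04) and by 1.24 ± 0.0734 without lymphatic 4. It fell by 1.00 ± 0.223 in hematogenous libraries (adjusted p = 3.81e-03). Between the routes the change of −0.48 ± 0.222 was not called (adjusted p = 0.139). Without lymphatic 4 it was −0.25 ± 0.0716 and was called (adjusted p = 0.0165), as it was with no filter on low counts (0.0242). The 12 endothelial and stromal markers, mostly Pecam1, summed to 76.4 to 80.8 CPM in culture, 80.9 to 115 CPM in lymphatic and 140 to 168 CPM in hematogenous libraries. Kdr, Tie1 and Emcn were under 1 CPM in every library, and Cdh5 was at 1.89, 1.52 and 3.81 CPM in the 3 groups and lower in lymphatic than in hematogenous libraries (log2 −1.35 ± 0.386, adjusted p = 0.0231). The 12 myeloid and dendritic markers summed to 17.0 to 21.9, 18.3 to 53.2 and 11.4 to 20.8 CPM, with opposite moves among the 4 tested. Lyz2 had 0 counts in culture and was at 27.6 CPM in lymphatic libraries, highest in lymphatic 4 at 42.1 CPM, and at 11.8 CPM in hematogenous libraries, a difference called in all 3 comparisons. Csf1r (8.54, 3.76 and 1.49 CPM), Itgam (4.89, 0.535 and 0.810 CPM) and Zbtb46 (5.66, 2.59 and 0.276 CPM) fell in both lymph node groups. The part of these cell types in the Cd93 levels was not tested.

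Cd24a, a surface glycoprotein that is high on precursor B cells, rose in both lymph node groups by small amounts. Its level was 1699, 1584, 1701 and 1596 CPM in culture 1 to 4. The lymphatic libraries, in order, held 2186, 2260, 1866 and 2651 CPM, and hematogenous 1 to 4 held 2049, 2106, 2041 and 2145 CPM. All lymph node libraries lay above all culture libraries, and the hematogenous libraries fell inside the lymphatic range. The rise was log2 0.45 ± 0.111 in lymphatic (adjusted p = 8.84e-03) and 0.34 ± 0.111 in hematogenous libraries (adjusted p = 0.0325). The second call was lost in 10 of 17 alternatives, among them no filter on low counts (0.115, the highest) and leaving out any 1 culture or hematogenous library. The routes differed by log2 0.10 ± 0.1104 (adjusted p = 0.527), and the change from culture in lymphatic libraries was 0.35 ± 0.0784 without lymphatic 4. Processed copies of Cd24a exist in the mouse genome, so that its reads may in part have been lost or split in counting.

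Kit, the receptor for stem cell factor on early progenitors and mast cells, was close to absent. It had 0, 1, 1 and 0 counts in culture 1 to 4. Lymphatic 1 to 4 had 1, 2, 2 and 0 counts, and hematogenous 1 to 4 had 0, 3, 0 and 0. With group totals of 2, 5 and 3 counts, no difference was detectable at this depth. The 7 mast cell and progenitor markers summed to at most 0.598 CPM in any library.

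Of 12 surface genes of precursor stages, Cd93, Kit and Cd24a among them, 10 were tested, and 4 rose and 1, Cd93, fell in lymphatic libraries against culture. The number that fell was 2 without lymphatic 2 or 4. Ly6d, a marker of B lineage commitment, rose from 0.211 CPM to 6.72 CPM in lymphatic libraries (log2 4.74 ± 0.711). Lymphatic 1 to 4 held 3.59, 2.71, 5.28 and 15.3 CPM, so that lymphatic 4 raised the mean. Culture 1 to 4 had 5, 0, 1 and 3 counts. In hematogenous libraries 6 rose and 1 fell, with Ly6d at 18.0 CPM (6.17 ± 0.693). Enpep, the BP-1 antigen of pre-B cells, reached 7.58 CPM there (adjusted p = 1.23e-06), with 315 counts against 2 in culture and a count ratio of 145 (95% counting interval 39.7 to 1200.0). Enpep was at 0.386 CPM in lymphatic libraries. Between the routes 0 were higher and 3 lower in lymphatic libraries, among them Enpep (−4.38 ± 0.419) and Ly6d (−1.43 ± 0.449), and 6 were lower without lymphatic 4. Called were 5, 7 and 3 of the 10 tested genes in the 3 comparisons, beside 26.4%, 27.8% and 22.3% over all. The list medians were log2 0.00, 0.37 and −0.46.

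Of 15 genes of transitional and mature stages, 14 were tested. In lymphatic libraries 8 rose and 4 fell, and in hematogenous libraries 10 rose and 1 fell. Ms4a1, which encodes CD20, was at 0.788 CPM in culture, 17.2 CPM in lymphatic and 78.8 CPM in hematogenous libraries, and the class II invariant chain gene Cd74 rose by log2 2.64 ± 0.258 and 4.58 ± 0.281. Ccr7, a lymph node homing receptor gene, fell in both (−1.19 ± 0.160 and −1.52 ± 0.162), and Ighd (−0.97 ± 0.111) fell in lymphatic libraries along with Cd22 (−0.999 ± 0.156). Ighd, the IgD heavy chain gene, rose in hematogenous libraries (1.49 ± 0.112), from 315 to 885 CPM, and differed by −2.46 ± 0.116 between the routes. Fcer2a had the largest rise of the list in lymphatic libraries against culture (5.92 ± 0.554), from 0.147 to 8.93 CPM. It also rose in hematogenous libraries (4.62 ± 0.590), to 3.53 CPM. Between the routes 2 were higher in lymphatic libraries, among them Fcer2a (1.30 ± 0.351), and 5 were lower. The number lower between the routes was 8 without lymphatic 4. The number higher was 1 without lymphatic 3 and 0 without hematogenous 1, 3 or 4. Called genes numbered 12, 11 and 7 of the 14 tested, beside 26.4%, 27.8% and 22.3% over all. The list medians were log2 0.65, 0.97 and −0.35.

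Of 30 transcription factor genes of the early B cell programme, 28 were tested, and between the routes 1 was higher and 13 were lower in lymphatic libraries, with a list median of log2 −0.54. Rag1, Rag2 and Dntt were higher in that comparison, and Igll1 and Il7r were lower. Ebf1 (−1.11 ± 0.118) and Pax5 (−0.89 ± 0.124), which set B lineage identity, Irf8 (−1.44 ± 0.168) and Bach2 (−1.41 ± 0.207) were among the 13, and Tcf4, an E protein gene, was the 1 higher (0.60 ± 0.105). Without lymphatic 1 or hematogenous 2 the number higher was 2. Against culture 4 rose and 10 fell in lymphatic libraries, with Bcl11a higher (0.84 ± 0.126) and Bach2 (−1.19 ± 0.206) and Foxo3 (−0.96 ± 0.130) lower. The number that rose was 2 without culture 1 and 7 without lymphatic 4, and the number that fell was 6 without culture 3. In hematogenous libraries 8 rose, among them Bcl11a (1.79 ± 0.128), Spib (1.62 ± 0.127) and Ebf1 (0.79 ± 0.117), and 3 fell, including Tcf4 (−0.88 ± 0.105). The number that fell was 1 without culture 1 or 2 or hematogenous 3 or 4. Of the 28, 14, 11 and 14 were called in the 3 comparisons, lymphatic against culture first, beside 26.4%, 27.8% and 22.3% over all. Foxo1 (71.9, 71.2 and 86.6 CPM), known in the mouse as an activator of Rag1 and Rag2, and Tcf3 (143, 149 and 202 CPM), the E2A gene, were not called in any comparison.

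**Figure D4:**
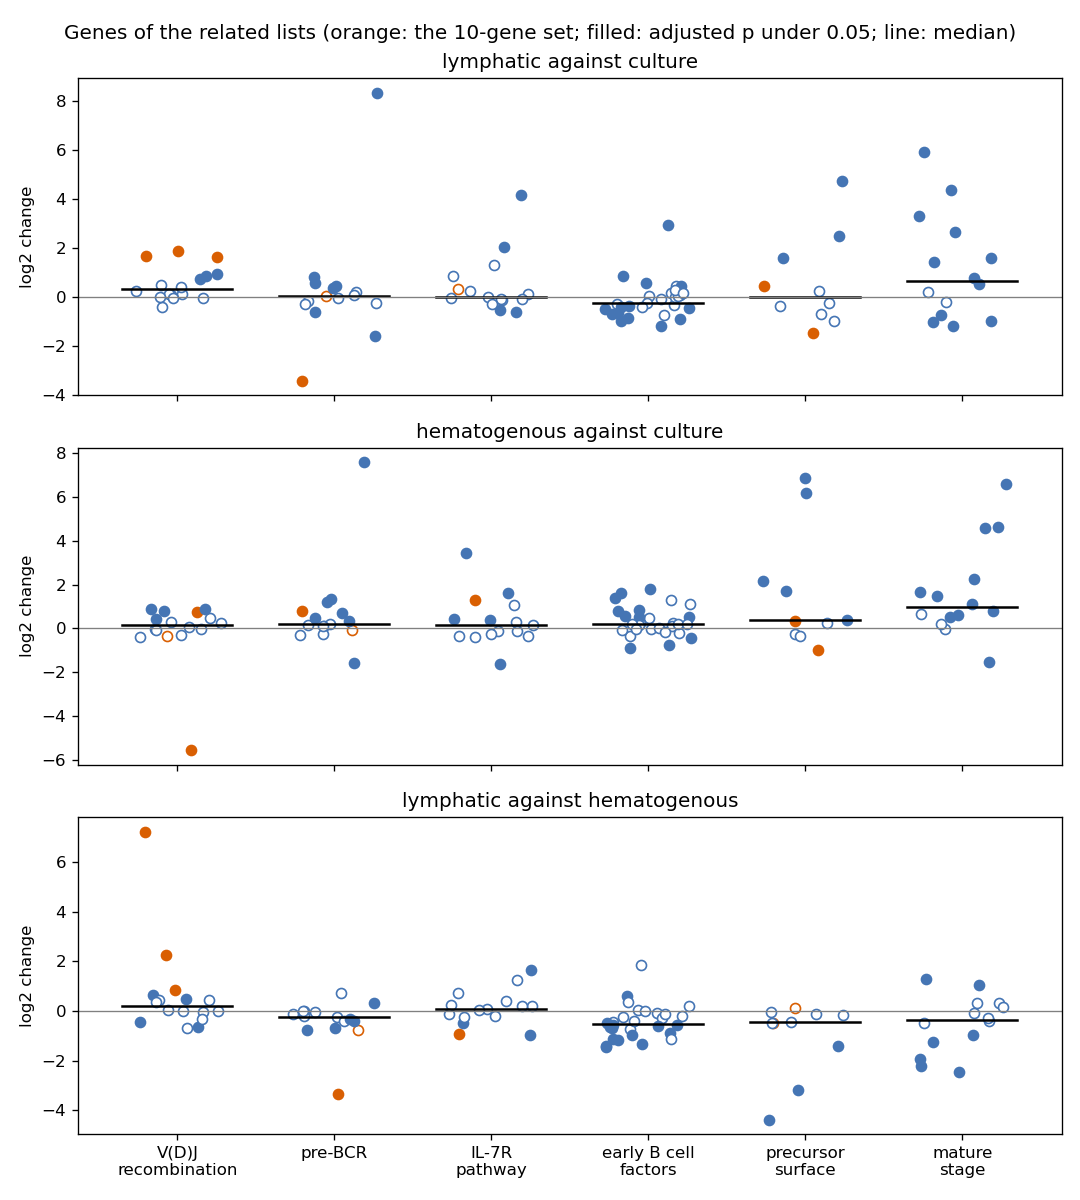
Log2 change (y axis) of every tested gene of 6 lists (x axis) in the 3 comparisons, with filled points for an adjusted p under 0.05 from edgeR, orange for members of the 10-gene set and a line at each list's median. The early factor list lay at a median of −0.54 between the routes, whereas Rag1, Rag2 and Dntt lay above 0.

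Genes whose pattern over the 12 libraries was closest to that of Rag1 were sought among 9142 genes with a mean of at least 5 CPM, by the root mean square difference of log2 CPM after centring each gene. The closest were Wdfy3 (0.416), Arhgef28 (0.452), Abca9 (0.555), Kdm1b (0.599) and Hsph1 (0.630), where the pattern of Rag1 itself departed from its own mean by 1.08. Among the other 7 tested members, Rag2 was the closest to Rag1, at 0.735, and Igll1 the farthest, at 2.15. Wdfy3 and Abca9 shared the fall in lymphatic 4 to the level of the culture libraries or below. Arhgef28, Kdm1b and Hsph1 stayed higher there than in any culture library.

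**Figure D5:**
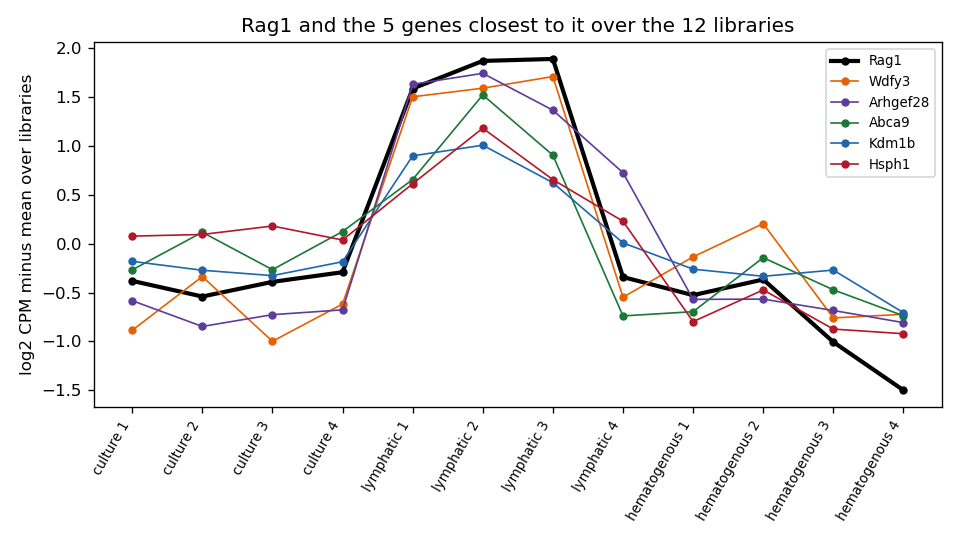
Log2 CPM minus the mean over libraries (y axis) for Rag1 (black, thick) and the 5 genes closest to it, in each of the 12 libraries (x axis). The 6 lines rise in lymphatic 1 to 3, and Wdfy3, at a difference of 0.416, follows Rag1 down in lymphatic 4.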

How the data were processed

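Poly(A) RNA of 12 mouse libraries was measured by single-end RNA-seq, stranded per the labels' protocols. Reads were handled with FastQC 0.11.9, Trimmomatic 0.39, HISAT2 2.1.0 and HTSeq 2.0.2 on GRCm39, per the submitters' processing notes. The authors deposited raw counts per gene and library, with no normalization. The strand setting of the counting is not given in the sources used here. The 5 summary lines, 30.3% to 36.5% of reads, entered neither library sizes nor tests. Symbols were matched by Ensembl ID (91.8% of IDs), and where 67 symbols were shared the ID with more counts was kept. Counts are reads and not molecules, so intervals cover counting error only.

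Tests used edgeR 4.0.16 with R 4.3.3 (quasi-likelihood F test, TMM, filterByExpr, all 12 libraries fitted on group, 9 residual degrees of freedom), two-sided, with Benjamini-Hochberg adjustment over 13535 genes at 0.05. SE was taken from the change and its F value. The fits were tested on simulated data. Alternatives were DESeq2 1.42.0, limma 3.58.1 (voom), other size factors, filters and sample sets, each library left out, and a block on replicate number. Leaving out lymphatic 4 and culture 4 together was added after the data were seen. CPM per kilobase used merged exon lengths of GENCODE M21. Sequences came from RefSeq (GRCm38.p6), which matched 8 of the 10 genes, and 9 motifs were searched on both strands. The members and lists were chosen with earlier results of these data known. Genes named from lists were the up to 3 largest called changes each way with at least 5 CPM in 1 group; Hmgb1, Xrcc4, Xrcc6 in lymphatic libraries, Ebf1, Pax5, Foxo1, Tcf3, Il2rg, Polm and Ighd in hematogenous libraries, and the lineage, cell type marker and overlapping genes were picked with their values already in view.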

Additional observations from a re-analysis of the deposited data

Results flagged for a closer look

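In 23 groups of 4 libraries examined, 1 library lay far from the other 3 in 3 cases by the 95% limit of Dixon's test, and chance flags about 1 in 20 groups. Culture 4 was the highest for Igll1, at 1.61 CPM (gap over range 0.890). That flag rested on 14 counts, beside 15, 7 and 11 in culture 1 to 3, where counting error is wide. Lymphatic 4 was the lowest for Il7r, at 40.1 CPM (0.872), and for Cd93, at 95.2 CPM (0.893). Lymphatic 4 lay below the mean of lymphatic 1 to 3 by 4.43-fold for Rag1, 2.54-fold for Cd93, 1.80-fold for Rag2 and 1.72-fold for Il7r, and above it by 1.90-fold for Vpreb3 and 1.26-fold for Cd24a. Each of these genes that lay below has more exon bases than those that lay above, and the part of length was not tested.

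The change from culture differed between the routes for 5 genes, by the direct comparison of lymphatic with hematogenous libraries in edgeR. The log2 differences were 2.25 for Rag1, 0.86 for Rag2, 7.22 for Dntt, −3.34 for Igll1 and −0.94 for Il7r, with adjusted p of 1.20e-03, 0.0191, 1.88e-04, 6.35e-03 and 0.0259. Lymphatic was the higher group in 4 of 4 libraries against all hematogenous libraries for Rag1 and Dntt, and the groups overlapped for Rag2, Igll1 and Il7r. Over all tested genes 22.3% were called in this comparison and 24.6% did not overlap. The Rag2 and Il7r calls were lost in 4 and 6 of 17 alternatives. For Rag1 the gap was narrow, with lymphatic 4 at 10.79 CPM and hematogenous 2 at 10.61 CPM, and it rested on the TMM factors (0.893 for lymphatic 4). As a share of assigned counts, lymphatic 4 (192 of 19965917) lay below hematogenous 2 (126 of 11720833), so that the groups overlapped. The value for Dntt is fitted on 1 hematogenous count and gives no bound.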

How the results depend on the processing

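Among 406 recomputed changes of the 8 tested genes, 0 of those called reversed, 354 kept their side of the threshold, 43 lost a call and 9 gained one. With only the 2 groups compared, 2 members were called between the routes in place of 5: Igll1 did not pass the filter there, and Rag2 (adjusted p = 0.0524) and Il7r (0.0854) missed the threshold. Without 1 library, 3 to 5 members were called in hematogenous libraries against culture in place of 6, and 3 to 7 between the routes. Over all genes, fits of only the 2 groups called 6344 in place of 3760 in hematogenous libraries against culture and 1734 in place of 3012 between the routes, which became 2002 without hematogenous 1. Of 612 list counts, 527 stayed within 1.5 times, 35 rose and 50 fell further. The labels do not say that replicate numbers pair libraries. Deviations from the group mean correlated at −0.181 to 0.0919 between libraries of the same number, which with 4 libraries per group cannot decide it. With a replicate block 5, 4 and 4 members were called in the 3 comparisons, with 2309 genes called between the routes in place of 3012. Dntt against culture in lymphatic libraries, Vpreb3 and Cd24a in hematogenous libraries and Il7r between the routes lost their calls under the replicate block. The cause of these shifts was not tested. Depth limited Vpreb1 and Kit, and Igll1 and Dntt where a group held 8 counts or fewer.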

Other observations

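The other tested members had near neighbours of their own among 9142 genes, by the same root mean square difference of centred log2 CPM over the 12 libraries, which share groups and depth. Closest to Cd93 was Slc6a6, the taurine transporter gene (0.0839), and then Prkca (0.117). Closest to Rag2 were Cybb, the phagocyte oxidase gene (0.292), and Ifi209 (0.337). Vpreb3 was closest to Dexi (0.162) and Chchd10 (0.178), Il7r to Birc3 (0.250), and Cd24a to Ywhae (0.0517). Dntt and Igll1 had no neighbour under 0.770, with Magohb at 0.908 and St6gal1 at 0.770 the closest.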
